A study of Mus musculus with 10 samples.

Results

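Xbp1, Rara, Igfbp4, Ctsd, Cxcl12, Myc, Ccnd1, Tff1, Ltf and Gata3 are among the best known estrogen-responsive genes of breast and uterus, and here they were looked up in the genomic binding sites of estrogen receptor alpha (ERα) in the arcuate and anteroventral periventricular (AVPV) nuclei of the mouse hypothalamus. The 10 genes were taken by name, by a rule that uses no measured value although earlier results of these data were known, from 21000 protein-coding genes with a curated RefSeq transcript. A peak was counted for a gene when its summit lay in the gene body or within 100 kb of any of its start sites. The 4 genes Xbp1, Rara, Igfbp4 and Ctsd had such peaks in the arcuate, and of these Xbp1 and Ctsd also had them in at least 2 AVPV libraries. The other 6 genes, Cxcl12, Myc, Ccnd1, Tff1, Ltf and Gata3, had no called peak in their windows in any of the 8 libraries. Of all coding genes, 37.5% had a region with peaks in at least 2 arcuate libraries, and 32.9% in at least 2 AVPV libraries. No peak in any library was found for 42.7% of them.

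The animals were ovariectomised female C57BL/6 mice that carried a 17β-estradiol implant (0.1 mg/mL in sesame oil), received estradiol benzoate (0.05 mg/kg) 1 week later, and gave tissue 28 h after that injection. Both nuclei therefore came from estrogen-treated females, and no group without estrogen was part of the series. Chromatin immunoprecipitation with an ERα antibody (sc-543) was run on chromatin pooled from several animals, giving 4 libraries per nucleus and an unprecipitated input library for each nucleus. No source says whether every library had a pool of its own, so SDs and p-values describe the spread between libraries, which may be technical. Inputs were made per nucleus and not per ERα library, so a difference between the inputs cannot be told apart from one between the nuclei. The nuclei were dissected, and a block of tissue holds more cell types than neurons. A lower peak can then mean fewer ERα-containing cells or less ERα on the DNA of each cell, which cannot be told apart, and the identity of the tissue could not be checked against marker genes because the files hold no expression values.

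The 8 peak lists held between 2367 and 4079 peaks. The arcuate lists were 4079, 3869, 3251 and 3468 peaks long and the AVPV lists 2367, 2542, 3347 and 3059, a difference of 838 on average (exact permutation test over libraries, two-sided, p = 0.0571). Merging peaks that overlapped between libraries gave 8072 regions, of which 4388 were seen in at least 2 libraries of the same nucleus and are called sites below. For each peak the lists give a fold enrichment over the local background of its library, here called fold enrichment over input. Because this fold depends on the depth and background of its library it was also expressed as a percentile, the share of the same list at or below it. Read counts were not used here, so a locus without a peak is one where none was called at a false discovery rate of 5%, and not one shown to be unbound.

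ERα is a nuclear receptor that enters chromatin when it binds estradiol and recruits coactivators or corepressors to nearby genes. On DNA it prefers the estrogen response element, a palindrome of AGGTCA half-sites with a short spacer, and it is also held at AP-1 and Sp1 motifs through the proteins that bind them. In breast cells the forkhead factor Foxa1 and the zinc-finger factor Gata3 help to make sites accessible, and most sites there lie at distal enhancers. The 10 genes span the known outputs of the receptor. Xbp1, Gata3, Myc and the retinoic acid receptor gene Rara encode transcription factors, Igfbp4 and Cxcl12 encode a secreted binding protein for insulin-like growth factors and a chemokine, Ctsd, Tff1 and Ltf encode the lysosomal protease cathepsin D, a trefoil peptide and the iron-binding protein lactoferrin, and Ccnd1 encodes the cyclin D1 of G1 phase.

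The DNA at Rara and Ctsd is shown first, with a different motif marked in each. For the neighbouring pair of summits in Rara, 201 bases around each median summit are given (chr11:98955418-98955618 and chr11:98955937-98956137, mm10, plus strand). In these the half-site AGGTCA or its complement is in capitals, since no match to the palindrome with at most 2 mismatches was found there. The closest match had 3 mismatches at the upstream summit and includes the capitals. At the downstream summit it had 4 and lies apart from them. For Ctsd, the 250 bases just before the start site (chr7:142387828-142388077, minus strand) are RefSeq promoter sequence with the Sp1 core GGGCGG or its complement in capitals. The capitals are no contrast between the genes. An Sp1 core in the upstream Rara sequence and a half-site in the Ctsd sequence are left in lower case.
Rara intron, upstream summit: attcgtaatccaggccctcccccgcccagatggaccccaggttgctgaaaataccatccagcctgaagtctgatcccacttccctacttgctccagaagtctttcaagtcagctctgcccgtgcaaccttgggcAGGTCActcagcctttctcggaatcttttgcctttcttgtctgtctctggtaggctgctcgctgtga
Rara intron, downstream summit: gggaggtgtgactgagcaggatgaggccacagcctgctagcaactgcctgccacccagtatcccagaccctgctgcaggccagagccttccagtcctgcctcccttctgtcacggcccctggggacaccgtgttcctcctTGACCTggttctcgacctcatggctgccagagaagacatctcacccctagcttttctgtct
Ctsd promoter: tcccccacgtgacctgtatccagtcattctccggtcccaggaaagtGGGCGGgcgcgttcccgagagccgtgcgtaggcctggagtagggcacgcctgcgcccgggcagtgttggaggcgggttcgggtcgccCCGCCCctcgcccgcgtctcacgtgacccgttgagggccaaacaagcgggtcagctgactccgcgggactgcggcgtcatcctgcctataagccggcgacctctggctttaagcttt

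Xbp1, a transcription factor of the unfolded protein response and of secretory cells, was the only one of the 10 genes with a region that had a peak in all 8 libraries. Of all 8072 regions, 1089 had peaks in all 8 libraries, and the share of coding genes near one was not counted. The Xbp1 region lay 21.7 kb downstream of the Xbp1 start site, beyond the 5353 bp gene. It was also the promoter of the neighbouring gene Ccdc117, whose start site lay 125 bp from the median summit. The position alone does not assign the peak to either gene. Fold enrichment was 21.4, 17.9, 21.2 and 20.1 in arcuate libraries 1 to 4. In AVPV libraries 1 to 4 it was 11.8, 14.5, 14.6 and 13.3. Every arcuate library was above every AVPV library, and the means were 20.1 ± 1.59 and 13.5 ± 1.30 (SD, n = 4 libraries each). How many of the 1089 regions had this order of fold enrichment was not counted.

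The same order held for the rank of the Xbp1 peak inside its own list. Its percentiles were 97.4, 96.1, 97.0 and 96.5 in the arcuate. They were 84.6, 91.9, 90.9 and 88.2 in the AVPV. The peak was thus among the strongest in each arcuate list and a step lower in each AVPV list, with means of 96.8 ± 0.557 and 88.9 ± 3.27 (SD, n = 4 each). The difference of 7.87 percentile points had an exact permutation p of 0.0286, the smallest that 4 against 4 libraries allow, and an adjusted p of 0.135 after Benjamini-Hochberg correction over the 1089 regions with peaks in all 8 libraries. No region of the 1089 passed the corrected exact test, for which 0.135 was also the smallest value reached, and 231 had an unadjusted p below 0.05. The percentile was higher in every arcuate than in every AVPV library at 158 of the 1089 regions, or 14.5%, and the median difference over all of them was 1.93 points. When peaks were ranked by −log10 p instead of fold, the Xbp1 difference shrank to 2.53 points with the same order of libraries (exact permutation p = 0.0286).

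**Figure D1:**
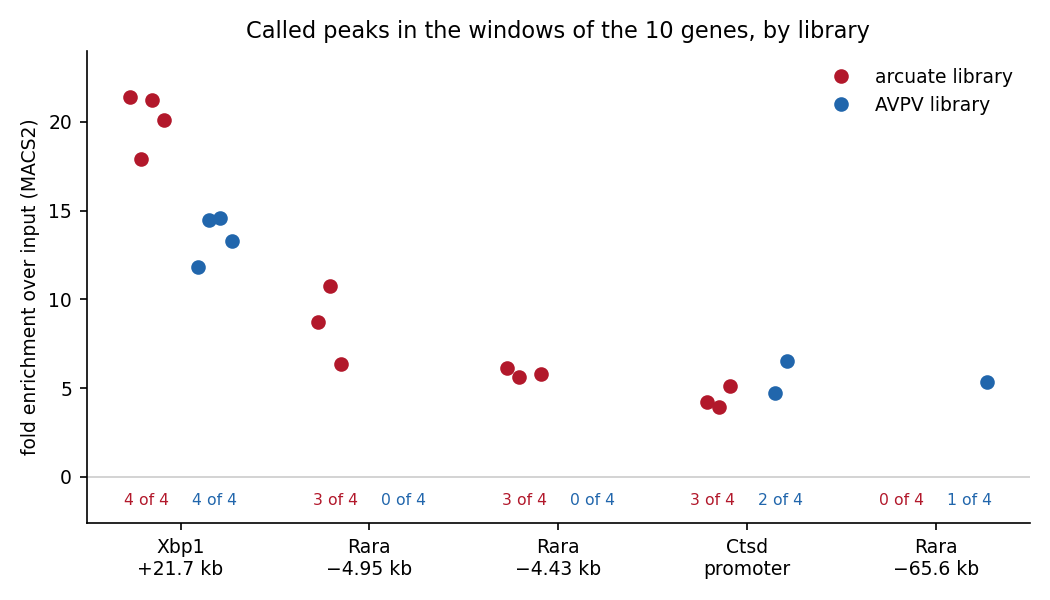
Fold enrichment over input of each called peak in the windows of the 10 genes, with 1 point per library and the number of libraries with a peak under each column. The Xbp1 region has 4 arcuate values from 17.9 to 21.4 above 4 AVPV values from 11.8 to 14.6, the paired Rara intron regions (shared with Igfbp4) have arcuate points and no AVPV point, and the Ctsd promoter has values from 3.96 to 6.50 in the 2 nuclei.

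Rara, the nuclear receptor through which retinoic acid acts and a target of estrogen in breast cells, carried intronic peaks in the arcuate lists and none in the AVPV lists. There were 2 neighbouring regions, separated by 139 bases, with summits 519 bp apart. Both lay in intron 2 of 8 of the transcript NM_009024.2, and 4.95 and 4.43 kb upstream of the nearest of the 5 annotated Rara start sites. The upstream region (chr11:98955323-98955666, 344 bp) was called in arcuate libraries 1, 2 and 3, where fold enrichment was 8.72, 10.8 and 6.35. These stood at percentiles 76.4, 86.8 and 52.0. The downstream region (chr11:98955806-98956153, 348 bp) was called in arcuate libraries 1, 2 and 4, where fold enrichment was 6.16, 5.65 and 5.77, all close to the middle of their lists at percentiles 50.8, 46.5 and 50.4. Each arcuate library therefore had a peak in at least 1 of the Rara regions, and no AVPV library had a peak in either. This pools 2 regions, neither of them called in every arcuate library, and its share over all genes was not counted.

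A presence in 3 arcuate libraries and 0 AVPV libraries is not separated by a test on these numbers (p = 0.143 for each region by a two-sided Fisher's exact test). That pattern was found at 4.48% of all 8072 regions. The stricter pattern of a peak in all 4 libraries of one nucleus against 0 of the other was met by 0 of the 5 regions near the 10 genes and by 2.95% of all regions. Leaving out arcuate library 3 or arcuate library 4 would bring 1 Rara region to that stricter pattern, since each of these libraries had a peak in one of the pair and not in its neighbour. The fifth region of the set was a single peak of AVPV library 4 (chr11:98872000-98872186), 65.6 kb upstream of Rara and in intron 1 of 7 of Wipf2, with fold enrichment of 5.34 at percentile 31.1.

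Igfbp4, which binds insulin-like growth factors and limits their action, lies downstream of Rara on the same chromosome. Its window was entered only by the pair of Rara intron regions, whose summits were 85.7 and 85.2 kb upstream of the Igfbp4 start site. They had Rara, not Igfbp4, as the gene with the nearest start site. Igfbp4 thus added no peak of its own to the set, and its values are those of Rara.

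Ctsd, which encodes cathepsin D, was the only one of the 10 genes with a site at its promoter, here a summit between 1 kb upstream and 100 bp downstream of a start site, against 6.71% of all coding genes. The region (chr7:142387783-142388140, 358 bp) had its median summit 93 bp before the start site. Fold enrichment was 4.24, 3.96 and 5.10 in arcuate libraries 2, 3 and 4, and no peak was called in arcuate library 1. It was 4.76 and 6.50 in AVPV libraries 2 and 3, and no peak was called in AVPV libraries 1 and 4. The ranks were scattered, at percentiles 13.8, 6.61 and 33.7 in the arcuate and 18.6 and 56.3 in the AVPV. The nuclei overlapped in fold and in number of libraries (p = 1 by a two-sided Fisher's exact test). The AVPV site rested on those 2 libraries, and leaving out AVPV library 2 or AVPV library 3 reduced the number of the 10 genes with an AVPV site from 2 to 1.

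The counts over the 10 genes were read against all coding genes, with no test on a list chosen by name. Their shares lay near or below the background for sites in the window and above it for genes without a peak. In the arcuate 4 of 10 had a site, against 37.5% of all coding genes, and in the AVPV 2 of 10, against 32.9%. A site in both nuclei was found for 2 of 10, against 28.8%. No peak in any library was found for 6 of 10, against 42.7%. With a window of 20 kb, which leaves out the Xbp1 region and the regions counted for Igfbp4, 2 genes had a site in the arcuate and 1 in the AVPV, and with peaks of fold enrichment above 5 alone, which leaves out Ctsd, 3 and 1 did. Because a window of 100 kb covers several genes in many places, the nearest start site was also used. Rara and Ctsd, 2 of 10, were the nearest coding gene to a site in their own window, against 14.2% of all coding genes. Rara was so for the arcuate alone and Ctsd for both nuclei. This share was above the background but rests on 2 genes and was not tested.

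Counted library by library, 3, 4, 4 and 4 of the 10 genes had a peak in arcuate libraries 1 to 4. In AVPV libraries 1 to 4 the numbers were 1, 2, 2 and 2. The groups did not overlap, and the means were 3.75 ± 0.5 and 1.75 ± 0.5 genes (SD, n = 4; exact permutation test, two-sided, p = 0.0286). Most of this step was Rara and Igfbp4, which entered through the same regions. When each region was counted for its nearest member only, a choice made after seeing the data, the difference fell from 2 to 1 gene (exact permutation p = 0.114). It also missed the threshold without AVPV library 1, at 1.75 genes (exact permutation p = 0.0571), and with windows of 20 or 50 kb, at 1.25 genes (exact permutation p = 0.0857 in each). Over all coding genes a peak was found for 37.2% ± 2.11 in the arcuate and 31.8% ± 4.20 in the AVPV (exact permutation p = 0.0857), and the arcuate lists were also the longer ones. With all lists cut to the length of the shortest, the difference in classic targets was 1.5 genes (exact permutation p = 0.0286).

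**Figure D2:**
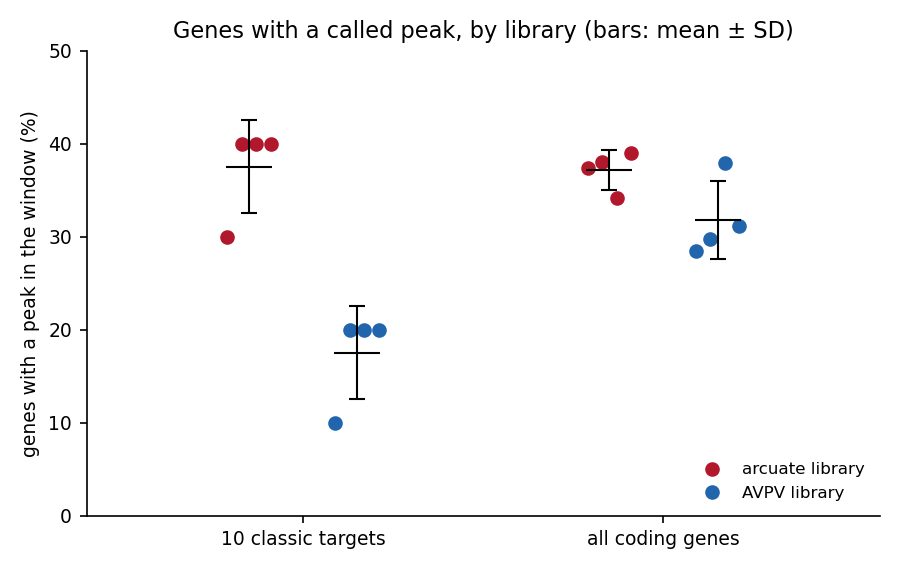
Percent of genes with a called peak in the window, with 1 point per library and the mean ± SD as bars, for the 10 classic targets and for all 21000 coding genes. The classic targets sit at 30 to 40% in arcuate libraries and 10 to 20% in AVPV libraries, while all coding genes overlap between the nuclei.

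Counted as regions, which removes the double entry of Rara and Igfbp4, the arcuate libraries had 3, 4, 3 and 3 and the AVPV libraries 1, 2, 2 and 2 regions near the 10 genes (difference 1.5, exact permutation p = 0.0286). The neighbouring Rara regions still counted as 2 in arcuate libraries 1 and 2. Counting genes by nearest member, which enters that pair once, gave the difference of 1 stated above (exact permutation p = 0.114). As a share of the regions in the list, the regions near the 10 genes were 0.0899% ± 0.0126 in the arcuate and 0.0622% ± 0.0154 in the AVPV (exact permutation p = 0.0571). With lists of equal length the difference was 1 region (exact permutation p = 0.114). The median percentile of these peaks was 61.4 ± 12.4 in the arcuate and 68.3 ± 13.4 in the AVPV (difference −6.92, exact permutation p = 0.457). This difference was −11.9 without arcuate library 1, −1.48 without AVPV library 1, −14.1 with a 50 kb window and −15.6 when peaks were ranked by −log10 p, and missed the threshold each time. In AVPV library 1 the Xbp1 peak, at percentile 84.6, was the only one of these peaks.

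The 6 genes without a peak in the window differed in how far away the nearest region lay. Myc, the growth-promoting transcription factor, had its nearest region 310 kb downstream (chr15:62295080-62295734), in no curated RefSeq transcript, and no other coding start site was closer to it. This region had a peak in all 8 libraries. Fold enrichment was 13.3, 15.9, 12.7 and 13.3 in arcuate libraries 1 to 4 and 5.64, 6.24, 6.90 and 8.74 in AVPV libraries 1 to 4. Its percentiles were 90.5, 95.0, 89.6 and 91.9 in the arcuate and 38.3, 50.3, 63.4 and 72.1 in the AVPV. Every arcuate value was above every AVPV value, with mean percentiles of 91.8 ± 2.36 and 56.0 ± 14.9 (SD, n = 4; exact permutation p = 0.0286, adjusted p = 0.135 over the 1089 regions). That order of percentiles was found at 14.5% of the 1089 regions, and the share with that order of fold enrichment was not counted. The difference of 35.7 percentile points was larger than that at Xbp1, but the Myc region was outside the window and whether it acts on Myc was not measured.

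Cxcl12, the chemokine that attracts cells bearing Cxcr4, also had an arcuate region beyond the window. It lay 165 kb downstream (chr6:117333769-117334275), in no curated RefSeq transcript, and Cxcl12 was the closest coding start site. Peaks were called in arcuate libraries 1, 2 and 3 with fold enrichment of 8.98, 6.46 and 7.82, at percentiles 77.9, 59.0 and 69.9, while the AVPV lists had none (p = 0.143 by a two-sided Fisher's exact test).

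The sequences at the Myc and Cxcl12 regions are shown because they are the regions outside the windows to which one of the 10 genes is still the nearest coding gene. Each has a match to the response element with 2 mismatches, in capitals, centred 6 bp from the median summit in the Myc region (chr15:62295349-62295549, plus strand) and 22 bp from it in the Cxcl12 region (chr6:117333847-117334047, plus strand). The Cxcl12 window also holds the forkhead core TGTTTAC. A match this close does not set the Myc and Cxcl12 regions apart, since 36.3% of all 4388 sites held one as close or closer. Closer matches, with 1 mismatch, lay by the nearest Ccnd1 region and the nearest Tff1 site. They were centred 49 and 1 bp from the median summit. The best match had 3 mismatches in the Ltf region. It had 5 in the nearest Tff1 region and in the nearest region and site of Gata3.
Myc downstream region: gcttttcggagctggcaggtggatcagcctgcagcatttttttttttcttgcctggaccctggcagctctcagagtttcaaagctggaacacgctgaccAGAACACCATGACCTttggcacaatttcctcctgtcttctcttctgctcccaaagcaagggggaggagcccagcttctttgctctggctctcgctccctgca
Cxcl12 downstream region: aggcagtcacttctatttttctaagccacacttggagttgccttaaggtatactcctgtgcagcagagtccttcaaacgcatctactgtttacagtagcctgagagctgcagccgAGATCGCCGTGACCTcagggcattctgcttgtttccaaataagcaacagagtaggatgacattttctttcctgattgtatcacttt

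The remaining genes without a peak had as nearest regions and sites peaks of at most 3 libraries, none above percentile 46.8 and all closer to another coding start site. For Ccnd1, the G1 cyclin, the nearest was 325 kb away in an intron of Ano1, with peaks in arcuate libraries 3 and 4 at percentiles 3.41 and 18.5. For Ltf, a strongly estrogen-induced gene of the mouse uterus, it was 166 kb away in an intron of Lrrfip2, with a peak in arcuate library 1 at percentile 19.5 and in AVPV libraries 1 and 4 at percentiles 46.8 and 40.9. For Tff1, the trefoil peptide gene whose promoter is a textbook ERα target in human breast cells, it was a single arcuate peak 213 kb away, and the nearest site lay 519 kb away. Gata3, the luminal breast transcription factor, had no region closer than 1243 kb and no site closer than 1623 kb.

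**Figure D3:**
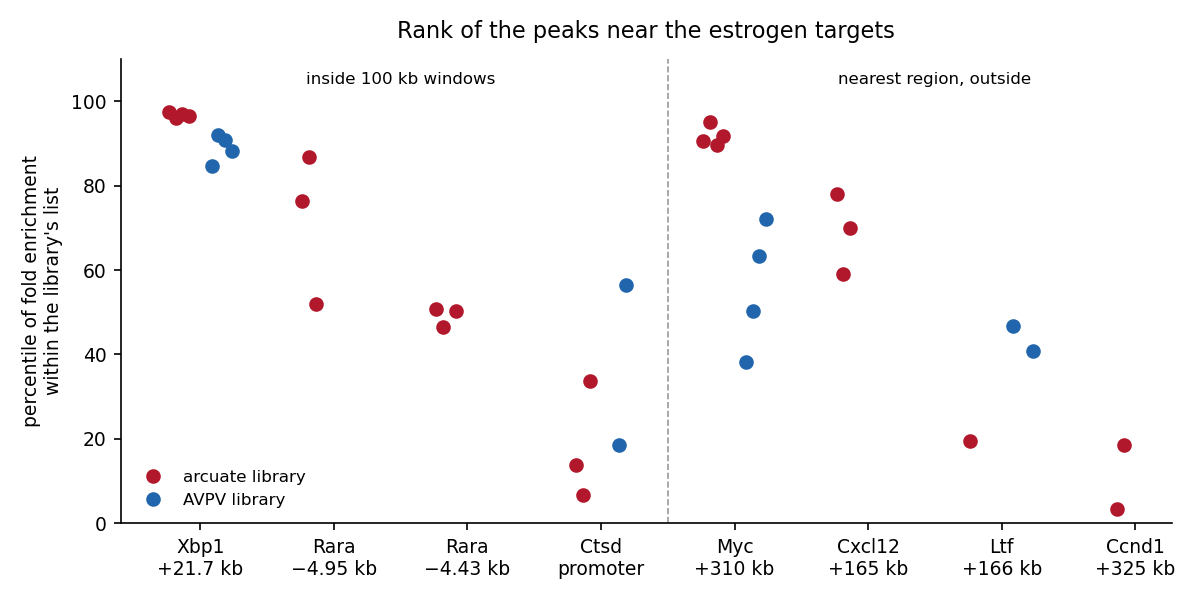
Percentile of fold enrichment within the library's own list, with 1 point per library that had a peak, for the 4 sites inside the windows (left of the dashed line) and for the nearest region outside the window of Myc, Cxcl12, Ltf and Ccnd1 (right). Xbp1 ranks highest in both nuclei, the Myc region shows the widest gap between arcuate (89.6 to 95.0) and AVPV (38.3 to 72.1), the Ctsd peaks spread from 6.61 to 56.3, and the Ltf and Ccnd1 peaks lie at or below 46.8.

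Over all 10 genes the median distance from a start site to the nearest site of either nucleus was 166 kb, against 146 kb for all coding genes. A site within 100 kb was present for 4 of 10 genes (40%) and for 40.7% of coding genes. The share within 100 kb was thus near that of coding genes in general.

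**Figure D4:**
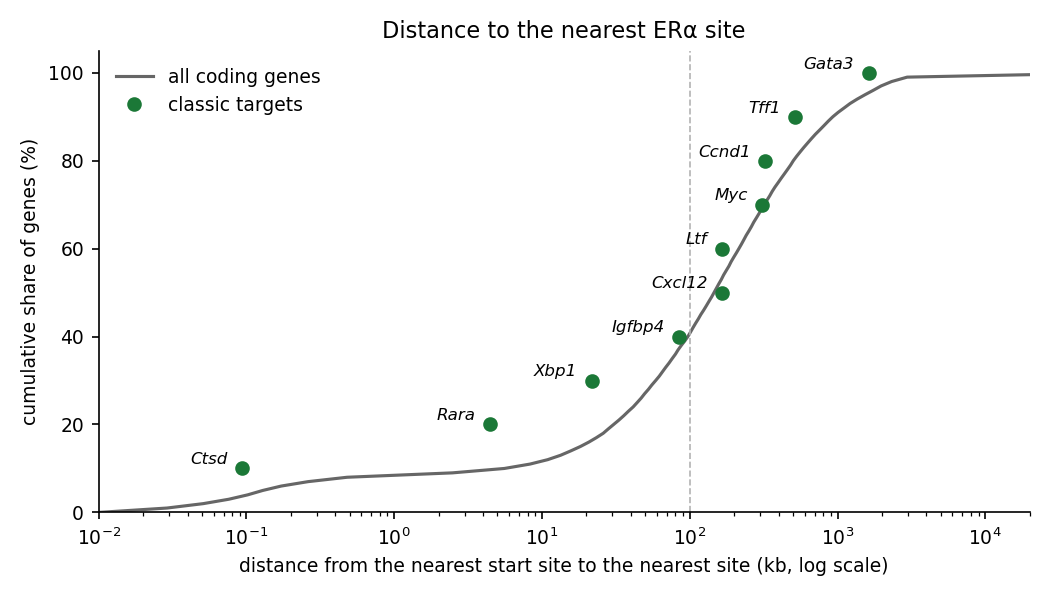
Cumulative share of genes by the distance from the nearest start site to the nearest ERα site (kb, log scale), with all 21000 coding genes as a line, the 10 classic targets as named points and 100 kb as the dashed line. Ctsd, Rara, Xbp1 and Igfbp4 lie left of 100 kb, and the other named points lie right of it.

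The sites were then read for DNA motifs within 100 bp of the median summit, on both strands. The response element searched was AGGTCANNNTGACCT, of which 12 bases are fixed. At most 2 mismatches were found at 1 of the 4 sites of the classic targets and at 36.3% of all 4388 sites. At most 1 mismatch was found at 0 of the 4 and at 15.8% of all sites. The half-site AGGTCA, which is also part of the palindrome, was present at 3 of 4 against 39.0%, both Rara regions among them. The Sp1 core GGGCGG was present at 2 of 4 against 17.5%, at the Ctsd promoter and the upstream Rara region. The AP-1 core TGANTCA was at 0 of 4 against 6.65%, and the forkhead core at 0 of 4 against 2.17%. With 4 sites these counts are a description and carry no test.

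The Ctsd promoter was the clearest case of a site without the palindrome, its closest match having 5 mismatches. Its 250 bases before the start hold 2 Sp1 cores and, nearer the upstream end, 1 half-site. RefSeq promoter sequences (250 bases before to 50 after a start) were at hand for 7 of the 10 genes, 10 promoters in all. A response element with at most 2 mismatches was in 0 of these 10 and in 494 of 32851 mouse promoters, and the Sp1 core was in 35.7% of all promoters, which makes it a frequent feature.

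Elements close to the palindrome lay in windows with and without peaks. The windows of the 10 genes held 21 distinct elements with 1 mismatch and none without a mismatch, and 0 of the 21 were within 100 bp of a called summit. Of these, 14 were in the windows of genes without any peak, in 5 of those 6 genes. Ltf had 5 such elements, the closest 8.52 kb before its start site, and 3 of them repeat the same letters 186 bp apart. Ccnd1 and Gata3 had 3 each, Tff1 had 2, Myc had 1 and Cxcl12 had 0. Among the genes with sites, Rara had 4, Xbp1 had 2, Ctsd had 1 and Igfbp4 had 2, both of which also lie in the Rara window. Of all coding gene windows, 67.5% held at least 1 element with at most 1 mismatch. Across the genome 11368 such elements were found, of which 8.77% lay within 100 bp of a summit, and of 404 elements without mismatch 49.0% did.

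**Figure D5:**
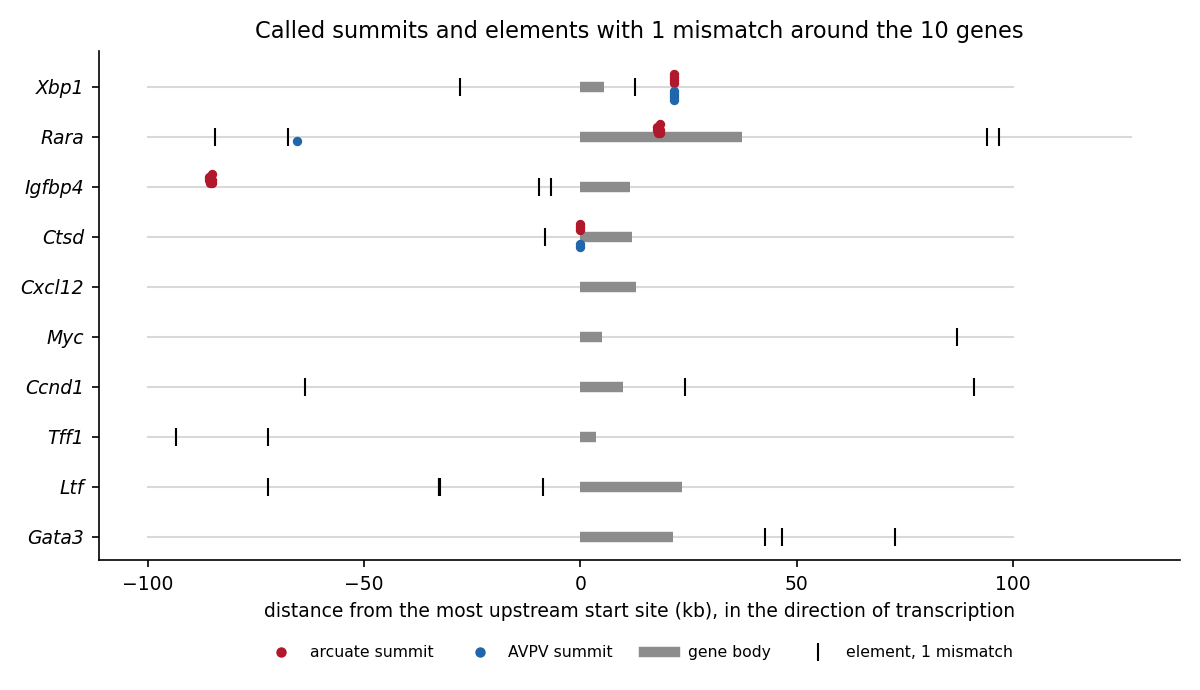
Called summits (1 point per library, arcuate above and AVPV below the line), elements with 1 mismatch (ticks) and gene bodies (grey bars) in the window of each gene, by distance in kb from its most upstream start site in the direction of transcription. The summits cluster 21.7 kb downstream of the Xbp1 start, inside Rara and at the Ctsd start, the Igfbp4 points are the Rara summits seen from Igfbp4, and no tick lies within 100 bp of a summit.

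For comparison, 24 other genes known as estrogen targets outside the brain were counted in the same way. A site was found for 9 of 24 in the arcuate (37.5%) and for 8 of 24 in the AVPV (33.3%), with 7 in both, and 8 of 24 had no peak in any library. The shares over all coding genes were 37.5%, 32.9%, 28.8% and 42.7%, so the sites of these targets also lay near the background. The 3 with the highest-ranked regions in all 8 libraries were Greb1, an estrogen-induced growth regulator of breast cells, with percentiles from 97.1 to 99.4, Nrip1, a corepressor of nuclear receptors, from 95.3 to 98.4, and Lcn2, the lipocalin 2 gene, from 92.9 to 97.2. Like the Xbp1 region, the last of these lay closer to another gene, 0.751 kb from the start site of Slc25a25 and 64.5 kb upstream of Lcn2. The lowest percentile at the Xbp1 region, 84.6, was below the lowest at these 3 regions, which were named for that value, and above the lowest at each of the other 7 regions of these targets with peaks in all 8 libraries (2.11 to 79.5).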

How the data were processed

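ERα ChIP-seq peak lists of 8 libraries, 4 from each nucleus, were analysed. The 2 inputs entered only through the lists. Per the labels and the study's methods, the authors aligned 75-nt single-end reads to mm10 with Bowtie2 2.5.0 and called peaks per library with MACS2 2.2.7.1 at a false discovery rate of 5%. Depth in reads is not given in these files, so no interval from counts was computed. The sequence at the Xbp1 region is not reported here. The deposited lists give the fold enrichment (a ratio), the −log10 p-value and −log10 q-value and the summit of each peak. Peaks sharing at least 1 bp were merged, and a site needed peaks in at least 2 of the 4 libraries of a nucleus. Genes came from the curated RefSeq annotation of GRCm38.p6, the same build. Libraries were compared with exact permutation tests over all 70 assignments, and regions with Fisher's exact test. Alternatives covered the window, thresholds, list length, merging, annotation and single libraries. Python 3.11.15, numpy 2.4.6 and scipy 1.17.1 were used. The 10 genes, the 24 comparison genes and the tests were chosen with earlier results of these data known. Text names all 10 genes, every region near them with peaks in at least 2 libraries of a nucleus, other genes only as neighbours, and the 3 comparison genes whose 8-library region had the highest lowest percentile. Regions beyond 100 kb were the nearest to each gene without a peak. The sample titles and the study's methods do not say whether same-numbered libraries of the nuclei are paired. These libraries did not deviate together, so the numbers were not used to pair them.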

Additional observations from a re-analysis of the deposited data

Results flagged for a closer look

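In 4 of 14 groups of 4 libraries examined, 1 library lay far from the other 3, which chance gives in about 1 in 20 groups. The counts are small whole numbers, in which 3 equal values and a neighbour are enough for this. Arcuate library 1 had 3 of the 10 genes with a peak where the other arcuate libraries had 4, because no peak was called there at the Ctsd promoter. AVPV library 1, the shortest list, had 1 gene and 1 region, the Xbp1 region, where the other AVPV libraries had 2. Arcuate library 2 had 4 regions, with both Rara regions, Xbp1 and Ctsd, where the other arcuate libraries had 3. The cause was not tested.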

How the results depend on the processing

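The percentile difference at the Xbp1 region was 2.53 points when peaks were ranked by −log10 p, 10.4 among peaks with fold enrichment above 5, 9.04 with −log10 q of at least 5, 8.05 in lists of equal length and 6.43 to 8.86 without single libraries, always higher in the arcuate. The replicate block was not run for it, the 20 kb window leaves the region out, and the other alternatives cannot move its value. In the replicate block, which compares libraries of the same number with sign flips, the smallest p is 0.125. It gave that value for members per library (2), regions per library (1.5) and their percent of the list (0.0276), and 0.5 for the median percentile. The difference in median percentile was −14.1 at 50 kb, −15.6 ranked by −log10 p, and −11.9 to −1.48 without single libraries, none past the threshold, and could not be computed at 20 kb, where a library had no region. Libraries of the same number did not deviate together (correlations of deviations from −0.0832 to 0.0503), which does not settle whether they are paired. Within 20 kb the genes with a site numbered 2 in the arcuate and 1 in the AVPV. Requiring 4 libraries gave 1 and 1. For the AVPV, 3 libraries or fold enrichment above 5 also gave 1, and leaving out single libraries gave 1 to 2. The difference in genes per library was 1.25 at 20 and 50 kb (exact permutation p = 0.0857), 1 with each region counted for its nearest member, and 1.75 to 2.25 without single libraries. The difference in regions per library was 1.25 with fold enrichment above 5 (exact permutation p = 0.0857) or −log10 q of at least 5 (exact permutation p = 0.114) and 1 in lists of equal length. As percent of the list it was 0.0446 at 20 kb (exact permutation p = 0.0286). Regions present in all libraries of a nucleus and none of the other numbered 0 to 1 without single libraries. With at most 1 mismatch, 0 sites held the element. Apart from the lists and samples that each alternative removes by construction, the cause of these changes was not tested. Absence means only that no peak was called, and read depth was not analysed here.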
